A study of Mus musculus with 12 samples.

Results

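Liver RNA of mice labelled SIRT3 knockout was compared between a high-fat and a standard diet. The comparison rests on 6 of the 12 arrays of the series, chosen by the genotype and diet in their labels, with 3 arrays on each diet. The mice were of the 129Sv strain, 12 weeks old and without food for 24 h when the whole liver was taken. The high-fat group had eaten a Western diet with 42% fat since weaning. Both groups carry the knockout, and the other 6 arrays hold wild-type mice on the same diets, which entered the fit and are shown beside the knockout at the end. The labels give the genotype without the kind of allele, and they state neither the sex of the mice nor the hour of killing. They number the replicates of a group from 1 to 3 without saying that each is a separate animal, so p-values measure the spread between these samples. Where values of a group are listed, they stand in the order of replicates 1, 2 and 3.

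SIRT3 is an NAD-dependent deacetylase of the mitochondrion that acts on enzymes of fat oxidation, ketone synthesis and respiration. The liver answers dietary fat and cholesterol largely through transcription factors. Sterols hold the SREBP factors in the endoplasmic reticulum, which lowers the genes of cholesterol synthesis, while oxysterols act through the LXR receptors to raise sterol export and Srebf1. Fatty acids act through the PPAR receptors on genes of fat uptake, storage and oxidation, and feeding sets the phase of the liver clock.

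Levels are on a log2 scale, where a difference of 1 is a 2-fold change, and differences are high-fat minus standard diet with the SE of the fit. A gene was called when its limma p, adjusted by Benjamini-Hochberg across the 19938 genes, lay under 0.05. The diets differed by this rule in 1018 genes (5.11%), of which 488 rose (2.45%) and 530 fell (2.66%), with 4308 genes at an unadjusted p under 0.05 and a median difference of -0.01. Of the calls, 62 were at least 2-fold (0.311% of genes), 35 up (0.176%) and 27 down (0.135%), and 338 were at least 1.5-fold (1.7%). A call is named stable here where it also held in each of 12 fits that left out 1 of the 12 arrays, which was so for 269 genes (1.35%), 126 up (0.632%) and 143 down (0.717%), and for 48 of the 62. Without high-fat replicate 2 the 1018 calls became 360, and without standard-diet replicate 1 or 2 or high-fat replicate 3 they became 508, 528 and 542. The diets appear to have been normalized in separate runs, since 335 probe sets lack a value on each standard-diet array and have one on each high-fat array. Run and diet cannot be told apart in what follows. The gene lists and their members were chosen with earlier results of these data known. Their shares of calls therefore describe the lists and do not test them. As a gauge, 1233 olfactory, vomeronasal and taste receptor genes, which are dim in liver, gave 33 calls up and 61 down (7.62%), with differences from -0.90 to 0.78. With a variance for such an offset, estimated over these receptor genes, 39 genes were called, 24 up and 15 down, among them 38 of the 62. The named genes among the 39 are Sqle, Msmo1, Cyp51, Tm7sf2, Nsdhl, Dhcr7, Fdps and Srebf1 of the sterol lists, Cd36, Lpl, Fabp4, Scd1, Krt23 and Nudt7 of the fat lists, Cyp17a1, Hsd3b3 and Cyp39a1 of the steroid and bile acid lists, Arntl, Bhlhe41, Dbp and Wee1 of the clock lists, and Sdf2l1, Inmt, Hnmt, Tubb2a, Adam11, Themis, Zfp991, Dsg1c, Serpinb1a and Cdh1. The other calls named in the text were not called with that variance.

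The tissue carried the marks of hepatocytes on all 6 arrays. Albumin (Alb) lay between 14.07 and 14.14 and transthyretin (Ttr) between 13.76 and 13.87, and of 17 measured hepatocyte markers only the arginase Arg1 was called. Sirt3, the targeted gene, read 8.83, 8.94 and 8.95 on the standard diet and 8.92, 8.49 and 8.87 on the high-fat diet. The groups overlapped, and the difference of -0.14 (SE 0.108, limma adjusted p = 0.48) was not called, with -0.01 in its place without high-fat replicate 2. The files do not place its probes relative to the altered part of the gene, so this signal is no check of the genotype.

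Standard-diet replicate 1 stood apart from the other arrays of its group. The mean of 28 acute-phase genes lay 0.70 above the group mean on that array and at -0.36 and -0.34 on the others, with the acute-phase protein Saa1 at 11.78 against 5.11 and 5.25. Male-biased liver genes averaged -0.54 there against 0.25 and 0.29, and female-biased ones 0.45 against -0.29 and -0.17. The Y-linked gene Uty read 6.51 there against 7.43 and 8.09, while Xist, the RNA of the inactive X chromosome, lay between 4.40 and 4.61 on all 6 arrays. On the high-fat diet replicate 1 stood apart in clock output genes, with a list mean of -0.34 against 0.56 and 0.46. Without both of these arrays 441 genes were called, 245 up and 196 down, an omission chosen after the data were seen. The part of these arrays in the results was not tested further than by leaving them out.

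The largest changes touched fat uptake, sterol synthesis, steroid metabolism and the clock. Among the rises, the estrogen sulfotransferase Sult1e1 (4.03-fold), the fatty acid transporter Cd36 (3.89-fold) and the desaturase Scd1 (3.61-fold) led. Among the falls, the steroid hydroxylase Cyp17a1 (6.89-fold lower), the squalene epoxidase Sqle (4.33-fold lower) and the sterol demethylase subunit Msmo1 (3.50-fold lower) led. In the 20 largest rises and 20 largest falls whose groups do not overlap, 30 of the 40 calls were stable. The 10 others were Bcl6, Hsd3b2, Arrdc3, Cyp4a12b, Pdk4, Igfbp1, Idi1, Creld2, Clec10a and Nipal1.

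**Figure D1:**
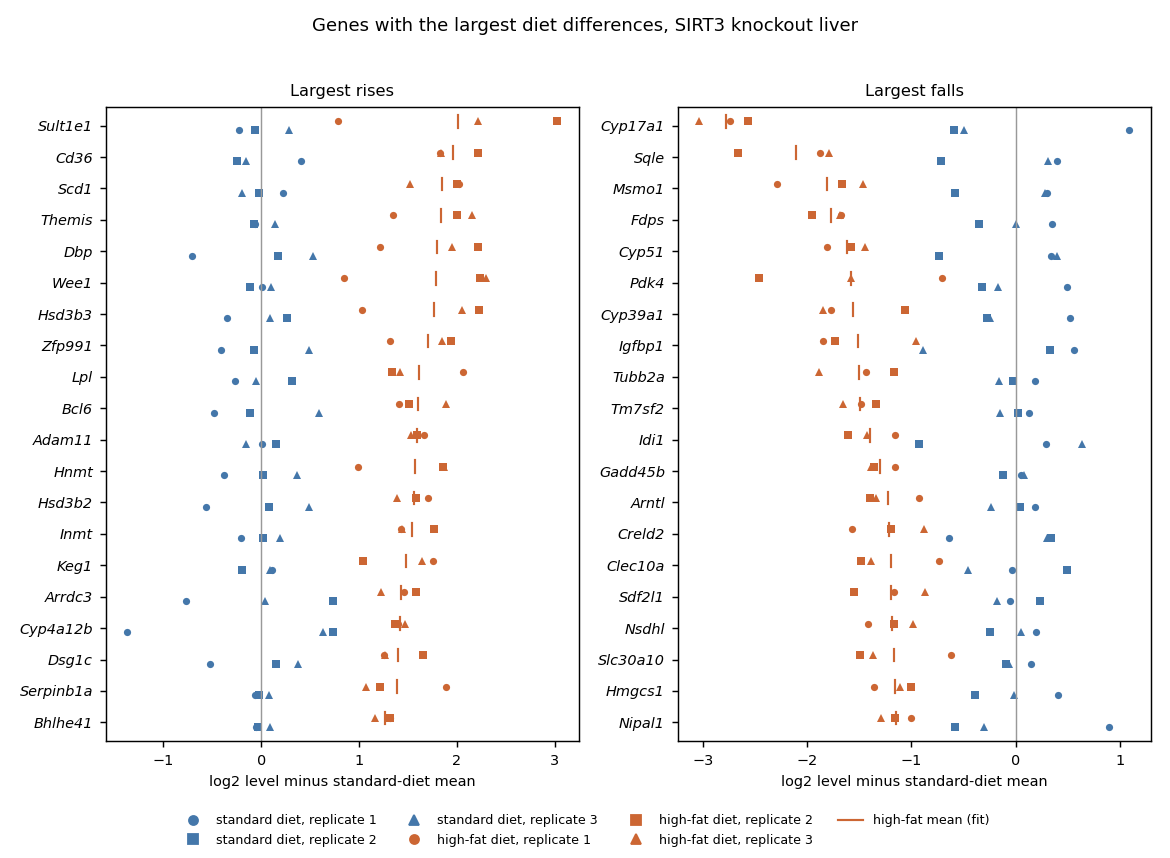
Log2 levels of the 20 largest rises (left) and the 20 largest falls (right) in SIRT3 knockout liver, each minus the standard-diet mean of that gene on the x axis, with 1 gene a row and 1 point an array. Blue marks the standard diet, orange the high-fat diet, the symbol the replicate and the orange line the high-fat mean. The groups are apart in each row, as the choice of genes requires, with Cyp17a1 lowest at -2.78 and Sult1e1 highest at 2.01.

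Genes of cholesterol synthesis were lower on the high-fat diet along most of the pathway. Of 12 measured genes of the sterol ring steps, which turn squalene into cholesterol, 9 fell and 0 rose (75.0% called, against 5.11% of all genes), 7 of the 9 calls were stable and the median difference was -0.88. All 12 had each high-fat array below each standard-diet array, an order seen in 13.2% of all genes. Of 8 measured genes of the mevalonate pathway, which builds squalene from acetyl units, 5 fell and 0 rose (62.5% called) with a median of -0.47.

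In the mevalonate pathway the enzyme that joins the first carbons, Hmgcs1, read 10.00, 9.21 and 9.58 on the standard diet and 8.24, 8.60 and 8.49 on the high-fat diet. It fell by 1.16 (SE 0.233, limma adjusted p = 0.0125). Fdps, which makes farnesyl pyrophosphate, read 8.67, 7.97 and 8.33 against 6.65, 6.37 and 6.64. That is a fall of 3.41-fold (-1.77, SE 0.162, adjusted p = 5.99e-05), and both calls were stable. The isomerase Idi1 read 9.14, 7.92 and 9.49 against 7.69, 7.24 and 7.42, a difference of -1.40 (SE 0.349, adjusted p = 0.0339). Its second standard-diet array lies near the high-fat ones, and the call ended without standard-diet replicate 1 (adjusted p = 0.1) or 3 (0.0815) or high-fat replicate 2 (0.119) or 3 (0.0929). A second Idi1 probe set gave -1.36. The kinase Pmvk (-0.41) and the decarboxylase Mvd (-0.53) were called as well. Pmvk kept no call without standard-diet replicate 1 (0.0843) or 2 (0.065) or high-fat replicate 1 (0.0617) or 3 (0.0845). Mvd kept none without knockout standard-diet replicate 1 (0.126) or 2 (0.0928), high-fat replicate 2 (0.125) or 3 (0.0999), or, at 0.0506 and 0.051, without wild-type standard-diet replicate 3 or wild-type high-fat replicate 1. Without standard-diet replicate 1 or high-fat replicate 3 the 5 calls became 2, and without standard-diet or high-fat replicate 2 they became 3. Not called were the kinase Mvk (-0.20), the squalene synthase Fdft1 (-0.05) and Ggps1 (0.19), which leads to geranylgeranyl groups and away from sterols.

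Squalene epoxidase, Sqle, which opens the sterol branch, read 8.38, 7.27 and 8.30 on the standard diet and 6.10, 5.32 and 6.20 on the high-fat diet. It differed by -2.11 (SE 0.289, limma adjusted p = 0.00148). Cyp51, the lanosterol demethylase, read 8.24, 7.17 and 8.30 against 6.09, 6.32 and 6.45 (-1.62, SE 0.284, adjusted p = 0.00591). Msmo1, which starts removal of the methyl groups at carbon 4, read 11.26, 10.37 and 11.24 against 8.66, 9.29 and 9.49 (-1.81, SE 0.299, adjusted p = 0.00465). In all of these genes standard-diet replicate 2 was the lowest of its group and still lay above each high-fat array. The spread was narrower for the sterol reductase Tm7sf2, at 10.85, 10.74 and 10.57 against 9.24, 9.38 and 9.07 (-1.49, SE 0.121, adjusted p = 3.08e-05). Dhcr7, which makes cholesterol in the last step of one branch, read 8.71, 8.66 and 8.56 against 7.53, 7.43 and 7.78 (-1.07, SE 0.102, adjusted p = 9.14e-05).

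The dehydrogenase Nsdhl (-1.19) and the scaffold protein Erg28 (-0.69) of the same demethylation complex also fell, with stable calls. Hsd17b7 (-0.52) was called and lost the call without high-fat replicate 2 (limma adjusted p = 0.0794). The cyclase Lss, outside the rule for named genes, stood at -0.44 (adjusted p = 0.046), and its call held only in the fits without high-fat replicate 3 or wild-type high-fat replicate 3 (otherwise 0.0523 to 0.125). Not called were Ebp (-0.31), Sc5d (-0.24) and Lbr (-0.22). Within the sterol ring list the largest falls thus lie at Sqle, Msmo1, Cyp51 and Tm7sf2.

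The promoters of these genes are shown because the members moved together and because the factors behind the pathway, SREBP and its partner NF-Y, bind known short motifs. Of the 20 measured members, 17 are in the RefSeq promoter table (build GRCm38.p6). The 250 bases before the start were searched on both strands for the NF-Y motif CCAAT and for TCACNCCA, a core of the sterol regulatory element. CCAAT was found in 16 of the 17 (94.1%), against 37.5% of all 27025 genes in the table. TCACNCCA was found in 2 (Hmgcs1 and Msmo1, 11.8%), against 4.2% of all genes. CCAAT was in 11 of 12 promoters of called genes and in 5 of 5 promoters of genes that were not called, so it did not separate them. A match is a description of letters and not a binding site. The promoters below, from genes with some of the largest falls, run 5′ to 3′ and end at the base before the start, with the searched motifs in capitals. They were chosen among the called members that hold a searched motif, so their matches follow from the choice. Msmo1 (chr8:64733579-64733828, minus strand) holds TCACNCCA and, nearer to the start, CCAAT at 3 places. Cyp51 (chr5:4104698-4104947, minus strand) holds CCAAT in its last 29 bases. Tm7sf2 (chr19:6067851-6068100, minus strand) holds CCAAT on the other strand, where it reads ATTGG, 47 bases before the start.
Msmo1: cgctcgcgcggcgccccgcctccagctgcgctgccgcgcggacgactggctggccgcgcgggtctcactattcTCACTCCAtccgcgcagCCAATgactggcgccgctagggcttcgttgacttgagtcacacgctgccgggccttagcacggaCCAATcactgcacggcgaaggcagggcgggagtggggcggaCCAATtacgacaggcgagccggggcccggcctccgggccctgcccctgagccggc
Cyp51: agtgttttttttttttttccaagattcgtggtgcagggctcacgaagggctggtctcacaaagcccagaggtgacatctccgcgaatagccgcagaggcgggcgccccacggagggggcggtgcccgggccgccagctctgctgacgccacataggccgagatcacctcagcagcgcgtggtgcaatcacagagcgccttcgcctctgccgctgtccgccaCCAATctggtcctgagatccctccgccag
Tm7sf2: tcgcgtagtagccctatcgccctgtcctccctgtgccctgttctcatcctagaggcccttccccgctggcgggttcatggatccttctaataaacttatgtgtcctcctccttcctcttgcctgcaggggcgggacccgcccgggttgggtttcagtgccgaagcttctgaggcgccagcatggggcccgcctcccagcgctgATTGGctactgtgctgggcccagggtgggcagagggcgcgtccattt

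Genes that sense or export sterols moved in both directions. Of 16 measured members 4 rose and 4 fell (50.0% called, against 5.11% of all genes), 7 of these 8 calls were stable, and the median was -0.07. Srebf1, the SREBP gene that drives fatty acid synthesis and is an LXR target, read 8.65, 7.99 and 8.20 on the standard diet and 9.26, 9.60 and 9.51 on the high-fat diet, a rise of 2.27-fold (1.18, SE 0.14, limma adjusted p = 0.000609). Srebf2, the SREBP gene of cholesterol synthesis, went the other way, from 8.94, 8.69 and 8.85 to 8.11, 8.24 and 8.18 (-0.65, SE 0.0979, adjusted p = 0.00294).

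The half-transporters Abcg5 and Abcg8, which together export sterols into bile, both rose. Abcg5 read 9.93, 9.88 and 10.03 against 10.65, 11.10 and 11.08 (1.00, SE 0.139, limma adjusted p = 0.00169), and Abcg8 differed by 0.78 (SE 0.131, adjusted p = 0.00486). Abca1, which loads cholesterol onto nascent HDL, rose by 0.64 (SE 0.0996, adjusted p = 0.00361). Insig1, which retains SREBP in the endoplasmic reticulum, fell from 10.71, 10.57 and 10.91 to 9.49, 9.99 and 9.82 (-0.96, SE 0.182, adjusted p = 0.00931). The sterol carrier Stard4 fell by 0.77 (SE 0.137, adjusted p = 0.00659). Insig2, a second retention protein, stood at -0.79 with groups apart, and its call ended without standard-diet replicate 2 (0.0602), high-fat replicate 2 (0.0752) or high-fat replicate 3 (0.052). Without standard-diet and high-fat replicates 1 together, the 4 falls became 1 and the 4 rises remained 4. The LXR gene Nr1h3 (-0.28), Scap (-0.16), Npc1 (0.01) and Abcg1 (0.23) were not called.

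**Figure D2:**
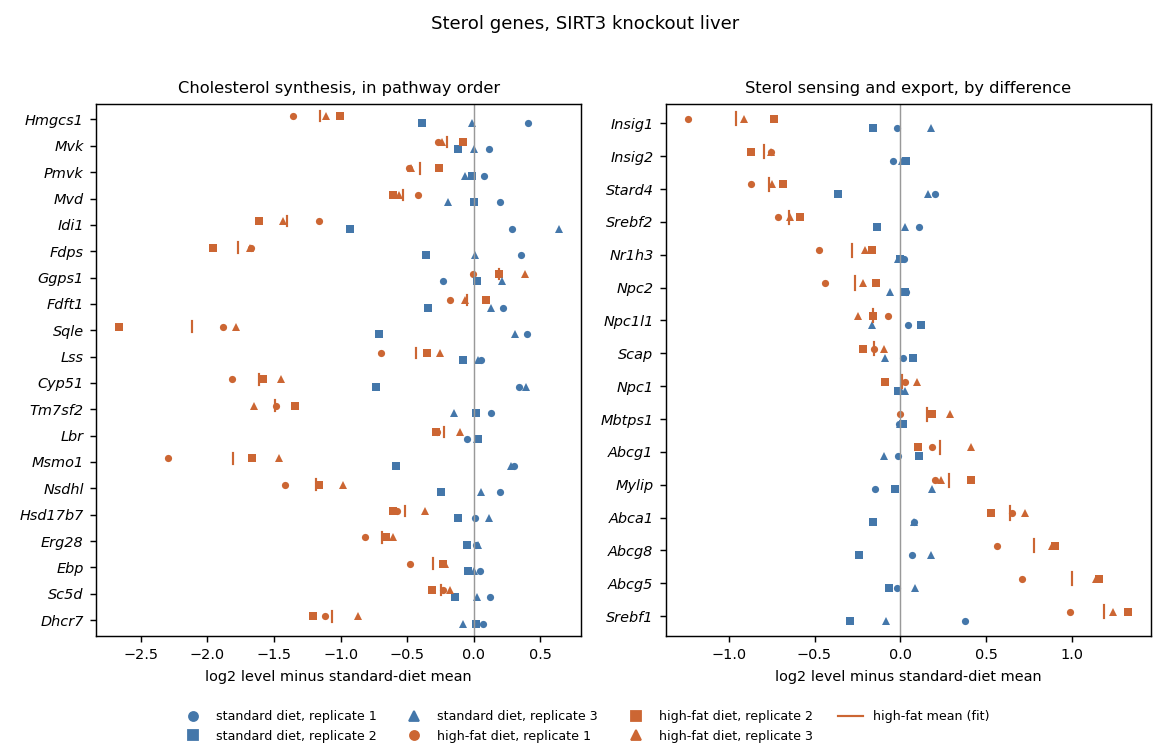
Log2 levels of cholesterol synthesis genes in pathway order (left) and of sterol sensing and export genes by difference (right) in SIRT3 knockout liver, minus the standard-diet mean of each gene on the x axis, with 1 point an array (blue standard diet, orange high-fat diet, symbol for the replicate) and the high-fat mean as an orange line. Sqle, Msmo1, Fdps and Cyp51 lie farthest to the left, and Abcg5 and Srebf1 reach 1.00 and 1.18 on the right.

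Of 14 measured genes of fat uptake and binding 3 rose, all with stable calls, 1 was called lower and the others were not called (28.6% called, against 5.11% of all genes), with a median of 0.15. Cd36, which takes up long-chain fatty acids, read 8.73, 8.08 and 8.17 on the standard diet and 10.16, 10.54 and 10.16 on the high-fat diet (1.96, SE 0.191, limma adjusted p = 0.000107). The lipoprotein lipase Lpl, which frees fatty acids from circulating triglyceride, read 6.22, 6.81 and 6.43 against 8.55, 7.83 and 7.91, a rise of 3.05-fold (1.61, SE 0.203, adjusted p = 0.000924). The fatty acid binding protein Fabp4, best known from fat cells and macrophages, read 5.56, 5.77 and 5.72 against 6.47, 6.62 and 6.77 (0.94, SE 0.105, adjusted p = 0.000435). In each of the 3 genes every high-fat array lay above every standard-diet array by a clear gap. The acyl-CoA binding protein Dbi was called lower (-0.44), and the call ended without standard-diet replicate 1 (0.0574) or high-fat replicate 2 (0.0585) or 3 (0.0667). The abundant liver protein Fabp1 stood at 0.07 (adjusted p = 0.678).

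Of 11 genes known from PPAR-gamma and fatty liver, 5 rose and 0 fell (45.5% called, against 5.11% of all genes), 4 of them stably, with a median of 0.09. They are Cd36 and Fabp4, the monoacylglycerol acyltransferase Mogat1, the droplet-forming protein Fitm1 and Pparg itself. Mogat1 read 6.13, 5.75 and 6.03 against 6.86, 7.26 and 7.29 (1.16, SE 0.222, limma adjusted p = 0.00977). Fitm1 read 7.94, 9.08 and 8.67 against 9.57, 9.85 and 9.90 (1.21, SE 0.204, adjusted p = 0.00486). Pparg read 7.92, 7.98 and 7.59 against 8.36, 8.40 and 8.24 (0.50, SE 0.116, adjusted p = 0.0242), and its call ended without standard-diet replicate 3 (0.0566) or high-fat replicate 1 (0.0549) or 2 (0.094). The fat-cell hormone Adipoq, which marks adipose tissue, was near the floor of the arrays, between 4.23 and 4.50, and was not called. In the list of pancreas, fat and muscle genes 1 of 20 was called (5.0%, against 5.11% of all genes). That call was a stable rise of at least 1.5-fold.

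Fatty acid synthesis moved in both directions, with 3 of 21 genes up, 3 down (28.6% called, against 5.11% of all genes) and a median of -0.05. Scd1, which makes monounsaturated fatty acids, read 11.74, 11.49 and 11.31 on the standard diet and 13.54, 13.52 and 13.04 on the high-fat diet (1.85, SE 0.217, limma adjusted p = 0.000609). Mlxipl, the carbohydrate-responsive factor ChREBP, read 8.93, 8.76 and 9.26 against 9.91, 9.78 and 9.86 (0.87, SE 0.126, adjusted p = 0.00221). Against these rises, Fads1, the delta-5 desaturase of polyunsaturated fatty acids, fell from 11.84, 11.68 and 11.73 to 10.94, 11.26 and 10.94 (-0.70, SE 0.0988, adjusted p = 0.00181). The carboxylases that make malonyl-CoA parted. Acacb, the form tied to mitochondria, fell from 8.66, 8.63 and 8.61 to 7.69, 7.85 and 8.16 (-0.73, SE 0.107, adjusted p = 0.00242). Acaca, the cytosolic form, stood at 0.42 (adjusted p = 0.0426) and lost its call without any knockout array other than standard-diet replicate 3 (0.0629 to 0.138) or any of 4 wild-type arrays (0.0577 to 0.0615). The value became 0.27 without standard-diet replicate 2, and a second probe set at 0.44 was not called (0.169). The citrate lyase Acly was called at -0.35, a call that ended without standard-diet replicate 1 (0.0811) or 2 (0.0898) or high-fat replicate 2 (0.104) or 3 (0.0843). The fatty acid synthase Fasn (-0.28, adjusted p = 0.206) was not called. Thrsp, a lipogenic nuclear protein, read 7.24, 7.22 and 8.02 against 7.46, 9.81 and 10.29, with overlapping groups and no call (1.69, adjusted p = 0.104).

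Of 17 droplet proteins and lipases, Fitm1 rose and Plin5 fell (11.8% called, against 5.11% of all genes), with a median of 0.04. Plin5, which ties droplets to mitochondria, read 9.87, 10.41 and 10.30 against 9.45, 9.41 and 9.14 (-0.86, SE 0.146, limma adjusted p = 0.00513). Of 19 triglyceride and phospholipid genes 4 rose and 0 fell (21.1% called), with a median of -0.11 that has the opposite sign to the calls. Besides Mogat1 these were the acyltransferase Lpcat3 (0.42, stable), which puts polyunsaturated chains into phospholipids, and Agpat1 (0.40) and Gpat4 (0.32) of glycerolipid synthesis, whose calls were not stable. Agpat1 lost its call without standard-diet replicate 1 (0.0663) or 2 (0.0834) or high-fat replicate 2 (0.108) or 3 (0.058), and Gpat4 without standard-diet replicate 1 (0.121) or 2 (0.0888) or high-fat replicate 2 (0.11) or 3 (0.1) and, at 0.0514 to 0.0535, without any of 3 wild-type arrays.

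The genes through which a fasting liver burns fat, the field in which SIRT3 acts, are given next. None of 20 genes of mitochondrial fatty acid oxidation was called (median -0.03, range -0.24 to 0.23), none of 46 genes of oxidative phosphorylation (median -0.09, range -0.35 to 0.14) and none of 23 antioxidant genes (median 0.03). The smallest p among them belonged to the complex I subunit Ndufs7 (-0.34, limma adjusted p = 0.0542), the carnitine palmitoyltransferase Cpt2 (-0.24, adjusted p = 0.0806) and the glutathione peroxidase Gpx1 (0.20, adjusted p = 0.11). Of the 46 oxidative phosphorylation genes 34 differences were negative, against 10418 of all 19938 genes. In 10 of the 46 each high-fat array lay below each standard-diet array, an order seen in 13.2% of all genes. The reverse order was seen in 0 of them and in 10.6% of all genes. In the wild type the median of this list was -0.19. The median SE over all genes was 0.114, so small shifts in these lists were not detectable with 3 arrays a group.

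Pdk4, the kinase that keeps pyruvate out of oxidation in fasting, read 9.82, 9.00 and 9.15 on the standard diet and 8.62, 6.85 and 7.74 on the high-fat diet (-1.58, SE 0.335, limma adjusted p = 0.0156). The high-fat arrays spread widely, and the call ended without standard-diet replicate 1 (0.0573) or high-fat replicate 2 (0.0569). Igfbp1, an IGF-binding protein that insulin lowers, read 12.25, 12.02 and 10.79 against 9.84, 9.95 and 10.73 (-1.51, SE 0.375, adjusted p = 0.0331). Standard-diet replicate 3 came within reach of the high-fat arrays, and the call ended without standard-diet replicate 1 (0.11) or 2 (0.116) or high-fat replicate 1 (0.0924) or 2 (0.116). It was the only call among 21 genes of gluconeogenesis and fasting (4.76% called, against 5.11% of all genes), where Pck1 (-0.04), G6pc (-0.69, adjusted p = 0.113) and Ppargc1a (-0.14) were not called. The ketone body transporter Slc16a6 was called at -0.65, and its call ended without any of the 3 standard-diet arrays (0.0517 to 0.11), without high-fat replicate 2 (0.137) or 3 (0.0835) or, at 0.0503 and 0.0516, without either of a pair of wild-type arrays.

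Some lists close to the known work of sirtuins held 2 calls each, none of them stable. Their shares of 8.7% to 10.5% stand beside 5.11% of all genes and 7.62% of the receptor genes. With so few calls they are not read as a result about these lists. Of 21 sirtuin and NAD genes 1 rose and 1, Nnmt, fell (9.52% called, median 0.01). The riser is the nicotinamide riboside kinase Nmrk1, at 1.15 (limma adjusted p = 0.0118), which lost its call without high-fat replicate 2 (0.0521). Of 23 genes of the citric acid cycle and pyruvate entry 1 rose and 1, Pdk4, fell (8.7% called, median 0.01). The riser is Pdk2, a relative of Pdk4, at 0.53, which lost its call without standard-diet replicate 1 (0.0563) or high-fat replicate 2 (0.0917) or 3 (0.0797). Of 19 glycolysis genes 2 fell and 0 rose (10.5% called, median 0.02), the isomerase Tpi1 at -0.33 and the lactate dehydrogenase Ldha at -0.38. Ldha lost its call without standard-diet replicate 1 (0.0538), and Tpi1 lost its call in 10 of the 12 fits (0.0551 to 0.166).

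Of 20 peroxisomal genes 1 rose and 2 fell, and of 19 PPAR-alpha responsive genes 2 rose and 1, Pdk4, fell. Each list thus held 3 calls, a share of at most 15.8%, against 5.11% of all genes and 7.62% of the receptor genes. The peroxisomal CoA hydrolase Nudt7 read 9.40, 9.78 and 9.69 against 11.01, 10.42 and 10.91, a stable rise of 1.16 (SE 0.183, limma adjusted p = 0.00366). The keratin Krt23 rose from 6.32, 6.98 and 6.88 to 7.73, 8.23 and 7.89 (1.22, SE 0.184, adjusted p = 0.00289), and the fatty aldehyde dehydrogenase Aldh3a2 by 0.56 (SE 0.0979, adjusted p = 0.00568). The carnitine acetyltransferase Crat fell by 0.51 (SE 0.0817, adjusted p = 0.00396). Ech1 stood at -0.38 and lost its call without standard-diet replicate 2 (0.0649) or high-fat replicate 2 (0.0913).

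Steroid and oxysterol enzymes held some of the largest differences. Of 14 steroid genes 4 rose and 1 fell (35.7% called, against 5.11% of all genes, median 0.15), with 2 of the rises and the fall stable. Cyp17a1, the hydroxylase and lyase of androgen synthesis, read 11.65, 9.98 and 10.07 on the standard diet and 7.82, 8.00 and 7.53 on the high-fat diet (-2.78, SE 0.356, limma adjusted p = 0.00103). Standard-diet replicate 1 is the highest by far, and the call did not depend on it. Sult1e1, which inactivates estrogens by sulfation, read 4.70, 4.86 and 5.21 against 5.71, 7.95 and 7.14 (2.01, SE 0.404, adjusted p = 0.0124). The high-fat arrays spread over more than 2 log2 units and the lowest still exceeds the standard diet.

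Hsd3b3, a hydroxysteroid dehydrogenase, rose from 8.13, 8.75 and 8.57 to 9.51, 10.71 and 10.53 (1.77, SE 0.251, limma adjusted p = 0.00185). Its relative Hsd3b2 stood at 1.56 and lost its call without standard-diet replicate 1 (0.0591) or high-fat replicate 2 (0.0609). The sulfotransferase Sult2a8 was called at 0.87, a call that ended without standard-diet replicate 1 (0.103) or 2 (0.12) or without any of the 3 high-fat arrays (0.0588 to 0.102). Genes of the Hsd3b family are near-identical copies, and probes shared among them could mix their signals. Of 18 bile acid synthesis genes 1 rose and 2 fell (16.7% called, against 5.11% of all genes). Cyp39a1, which hydroxylates an oxysterol on the way to bile acids, read 9.38, 8.58 and 8.62 against 7.08, 7.80 and 7.01, a stable fall (-1.56, SE 0.24, adjusted p = 0.00324). The peroxisomal thioesterase Acot8 (-0.41) and the ketosteroid reductase Akr1c6 (0.61) were called without being stable. Acot8 lost its call without any of the 3 standard-diet arrays (0.0512 to 0.0522) or without high-fat replicate 1 (0.0634) or 2 (0.0795), and Akr1c6 without standard-diet replicate 1 (0.0656) or 2 (0.0831) or high-fat replicate 2 (0.0719) or 3 (0.0805). None of 15 bile acid and drug transporters was called (median 0.14).

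Clock genes were shifted, with high-fat replicate 1 apart from the others. Of 17 core clock genes 5 rose and 1 fell (35.3% called, median 0.26, stable for 2 of the rises and the fall). Of 18 output genes 4 rose and 2 fell (33.3% called, median 0.09, stable for 2 of the rises). Among all genes 5.11% were called. In the core loop Arntl, the activator also called Bmal1, and the called repressors stood on opposite sides. The repressors Per1 and Cry1 were not called. Over the 17 core genes 12 differences were positive and 5 negative. Arntl read 8.28, 8.13 and 7.85 on the standard diet and 7.16, 6.69 and 6.75 on the high-fat diet (-1.22, SE 0.201, limma adjusted p = 0.00453). Bhlhe41, the repressor Dec2, read 5.44, 5.46 and 5.58 against 6.81, 6.80 and 6.66 (1.27, SE 0.107, adjusted p = 3.08e-05), and Per3 read 6.26, 6.48 and 6.85 against 7.22, 7.69 and 7.98 (1.10, SE 0.184, adjusted p = 0.00486).

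The repressors Per2 (0.84), Cry2 (0.48) and Nr1d2 (0.85) were called, and each lost its call without high-fat replicate 2 (limma adjusted p = 0.144, 0.051 and 0.0814) or 3 (0.122, 0.0571 and 0.0699). Per2 also lost it without standard-diet replicate 1 (0.118) or 2 (0.0562) or wild-type standard-diet replicate 1 (0.0502), and Cry2 without standard-diet replicate 2 (0.0545). Among output genes Dbp, a factor that binds D-box motifs, read 7.24, 8.11 and 8.47 against 9.15, 10.16 and 9.89 (1.79, SE 0.322, adjusted p = 0.00659). Wee1, a kinase that delays mitosis and is a clock target, read 7.22, 7.10 and 7.31 against 8.06, 9.45 and 9.51 (1.79, SE 0.284, adjusted p = 0.00373). For both genes high-fat replicate 1 was the lowest of its group and still lay above the standard diet.

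Tef, a relative of Dbp, stood at 0.96 and lost its call without high-fat replicate 2 (limma adjusted p = 0.0633) or 3 (0.0552). The vasopressin receptor Avpr1a stood at -1.08 with groups apart and lost its call without standard-diet replicate 1 (0.105) or 3 (0.0554) or without any of the high-fat arrays (0.0588 to 0.103). Tspan4 (0.53) and Leo1 (-0.50) were also called. Leo1 lost its call without high-fat replicate 2 (0.0602). Tspan4 has overlapping groups and lost its call without standard-diet replicate 2 (0.0973) or 3 (0.0799), high-fat replicate 2 (0.123) or 3 (0.129) or, at 0.0503 to 0.0519, any of 3 wild-type arrays. In several other output genes replicate 1 was low on both diets. Ciart, a clock repressor, read 6.93, 8.14 and 8.36 on the standard diet and 7.27, 9.71 and 9.00 on the high-fat diet, and the phosphatidate phosphatase Lpin1 read 8.96, 11.76 and 11.43 against 8.24, 10.86 and 10.54. Neither was called. Without high-fat replicate 1 the median of the output genes was 0.40 with 5 up and 1 down, and without both replicates 1 it was 0.24 with the same counts. Without high-fat replicate 2 the output genes gave 2 rises and 0 falls, and without high-fat replicate 3 they gave 2 and 1 with a median of -0.05, so no direction is given for the output list. The 5 core rises became 2 without high-fat replicate 2 or 3 and 3 without standard-diet replicate 2, with the median between 0.25 and 0.31.

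**Figure D3:**
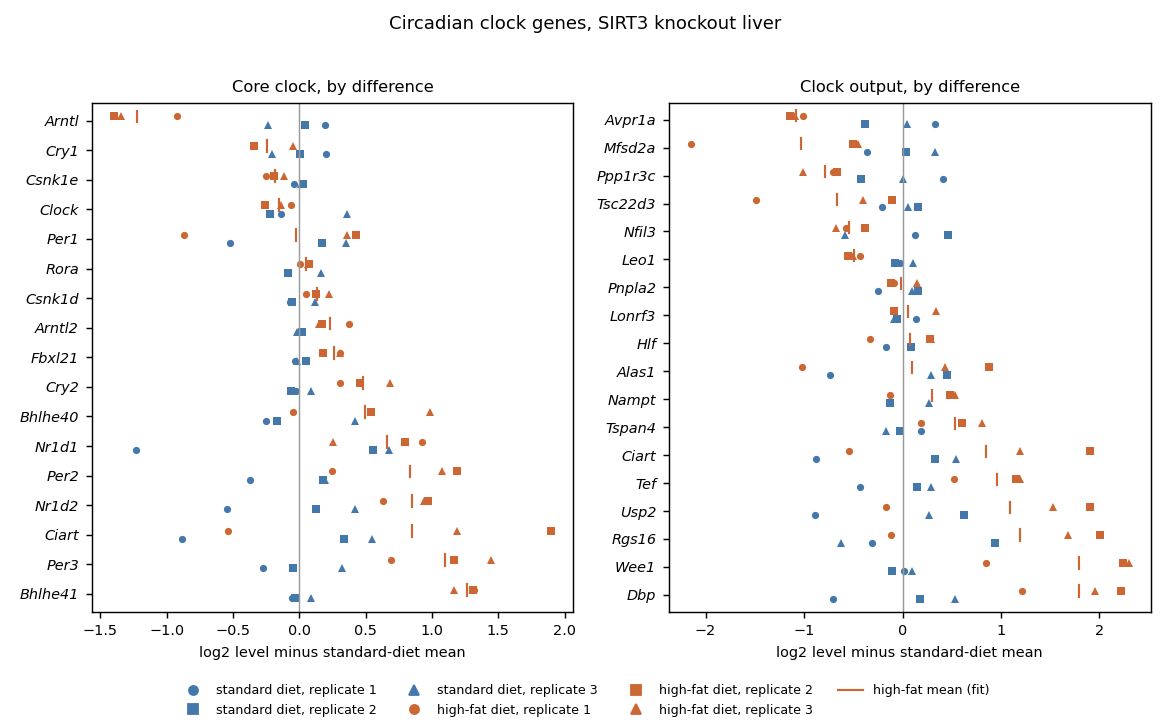
Log2 levels of core clock genes (left) and clock output genes (right) in SIRT3 knockout liver, ordered by difference, minus the standard-diet mean of each gene on the x axis, with 1 point an array (blue standard diet, orange high-fat diet, circle for replicate 1, square for 2, triangle for 3) and the high-fat mean as an orange line. Bhlhe41 and Arntl have tight groups that are apart, while the circles of Ciart, Usp2 and Rgs16 lie left of the other symbols of the high-fat diet.

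Clock promoters were searched in the same way, since Arntl acts through the E-box CACGTG, Dbp, Tef and Hlf through the D-box, and the REV-ERB and ROR receptors through TAGGTCA. Of 34 measured members of both lists 30 are in the promoter table. CACGTG was found in 8 of the 30 (26.7%), against 6.86% of all genes. Of the D-box forms, TTATGTAA was found in 1 (3.33%, against 0.977%) and TTATGCAA in 1 (3.33%, against 0.829%), and TAGGTCA in 2 (6.67%, against 2.55%). CACGTG stood in 3 of 10 promoters of called genes and in 5 of 20 of genes that were not called. Printed in capitals are CACGTG in Bhlhe41 (chr6:145865421-145865670, minus strand), which ends 148 bases before the start, and in Tef (chr15:81802423-81802672, plus strand), and TTATGTAA at both its places in Per3 (chr4:151044666-151044915, minus strand). These were chosen among the called members that hold a motif. Tef has 2 starts in the promoter table, and the printed promoter was picked for holding the most motif matches. In all promoter counts a gene holds a motif if the promoter of any of its starts does.
Bhlhe41: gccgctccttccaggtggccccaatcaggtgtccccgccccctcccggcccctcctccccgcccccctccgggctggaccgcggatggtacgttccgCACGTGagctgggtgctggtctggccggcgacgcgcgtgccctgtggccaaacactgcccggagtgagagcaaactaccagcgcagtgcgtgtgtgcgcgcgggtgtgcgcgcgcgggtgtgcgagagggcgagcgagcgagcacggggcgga
Tef: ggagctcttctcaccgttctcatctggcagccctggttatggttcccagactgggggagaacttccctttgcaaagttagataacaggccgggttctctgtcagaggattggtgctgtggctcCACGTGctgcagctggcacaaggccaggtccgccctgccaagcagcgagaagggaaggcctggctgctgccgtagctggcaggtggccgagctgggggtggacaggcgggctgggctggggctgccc
Per3: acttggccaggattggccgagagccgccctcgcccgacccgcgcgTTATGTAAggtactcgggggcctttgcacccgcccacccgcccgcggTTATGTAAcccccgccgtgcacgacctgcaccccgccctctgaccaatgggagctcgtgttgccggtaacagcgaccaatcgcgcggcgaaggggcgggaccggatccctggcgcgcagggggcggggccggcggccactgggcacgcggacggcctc

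Chaperones and foldases of the endoplasmic reticulum were lower on the high-fat diet as a group. Of 23 measured genes 11 fell and 0 rose (47.8% called, against 5.11% of all genes), 21 differences were negative and the median was -0.38. Each high-fat array lay below each standard-diet array in 16 of them, an order seen in 13.2% of all genes. The list means, relative to the standard-diet mean, were -0.11, 0.03 and 0.08 on the standard diet and -0.55, -0.49 and -0.27 on the high-fat diet, so that the groups do not overlap. List means were apart by diet in several other lists too. Of the 11 calls 2 were stable. Without high-fat replicate 2 the 11 falls became 3, without high-fat replicate 1 they became 6, and without standard-diet replicate 2 they became 7, while the median stayed between -0.32 and -0.41 in these fits. Median centring left 7.

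Sdf2l1, part of the chaperone complex around BiP, read 8.73, 9.02 and 8.61 on the standard diet and 7.62, 7.24 and 7.92 on the high-fat diet (-1.19, SE 0.16, limma adjusted p = 0.0013). Hyou1, which exchanges nucleotides on BiP, read 10.10, 10.45 and 10.47 against 9.61, 9.42 and 9.70 (-0.76, SE 0.133, adjusted p = 0.00577). These are the stable calls. BiP itself, Hspa5, read 12.06, 12.33 and 12.49 against 11.65, 11.45 and 11.77 (-0.67, SE 0.136, adjusted p = 0.0131), with groups apart, and lost its call without high-fat replicate 2 (0.0678). Creld2, a folding factor secreted under stress, stood at -1.22 and lost its call without standard-diet replicate 2 (0.0682) or high-fat replicate 1 (0.0532) or 2 (0.0556). Manf (-0.73), Dnajb11 (-0.53) and the disulfide isomerase Pdia6 (-0.54) lost theirs without high-fat replicate 2 (0.0569, 0.0642 and 0.107). Dnajb11 lost it also without standard-diet replicate 2 (0.0622), and Pdia6 without standard-diet replicate 1 (0.105) or high-fat replicate 1 (0.0896). Calreticulin, Calr (-0.50), lost its call without standard-diet replicate 1 (0.0531). The sensor kinase Ern1 (0.12), the factor Xbp1 (-0.16) and Herpud1 (0.04) were not called.

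Of 18 genes of the integrated stress response 1 rose and 1 fell (11.1% called, against 5.11% of all genes), with a median of -0.15. The list means were 0.10, -0.04 and -0.06 on the standard diet and -0.22, -0.36 and -0.28 on the high-fat diet, so the groups do not overlap. Such a gap is not particular to this list. In the coagulation and complement list, with 1 of 27 genes called (3.7%), means were 0.03, -0.06 and 0.03 against 0.07, 0.06 and 0.26. Gadd45b, a stress gene of growth arrest, read 9.64, 9.46 and 9.67 on the standard diet and 8.44, 8.23 and 8.20 on the high-fat diet (-1.30, SE 0.235, limma adjusted p = 0.00681), and the call was stable. Its relative Gadd45a was called at 0.55 and lost the call without standard-diet replicate 2 (0.0982) or any of the high-fat arrays (0.0586 to 0.082). Atf4 (-0.13) and the fasting hormone Fgf21 (-0.18) were not called. None of 23 immediate early and heat shock genes was called (median -0.19).

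Genes of nitrogen disposal fell in part. Of 25 measured genes of the urea cycle and amino acid breakdown 6 fell and 0 rose (24.0% called, against 5.11% of all genes, 5 stable), with a median of -0.06. Gldc, the glycine decarboxylase, read 10.89, 10.96 and 10.79 on the standard diet and 10.04, 9.88 and 9.74 on the high-fat diet (-0.99, SE 0.135, limma adjusted p = 0.00148). The arginase Arg1, which releases urea, read 12.77, 12.89 and 12.87 against 12.00, 12.19 and 12.47 (-0.62, SE 0.101, adjusted p = 0.00428). The ornithine carrier Slc25a15 fell by 0.59 (SE 0.0772, adjusted p = 0.00118), the lyase Asl by 0.57 (SE 0.104, adjusted p = 0.00732) and the cytosolic aspartate transaminase Got1 by 0.76 (SE 0.138, adjusted p = 0.00681). The histidase Hal stood at -0.58 and lost its call without standard-diet replicate 1 (0.0562) or high-fat replicate 2 (0.0612) or 3 (0.0732). Not called were the mitochondrial urea cycle enzymes Cps1 (-0.05) and Otc (0.35), the latter a known SIRT3 substrate.

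**Figure D4:**
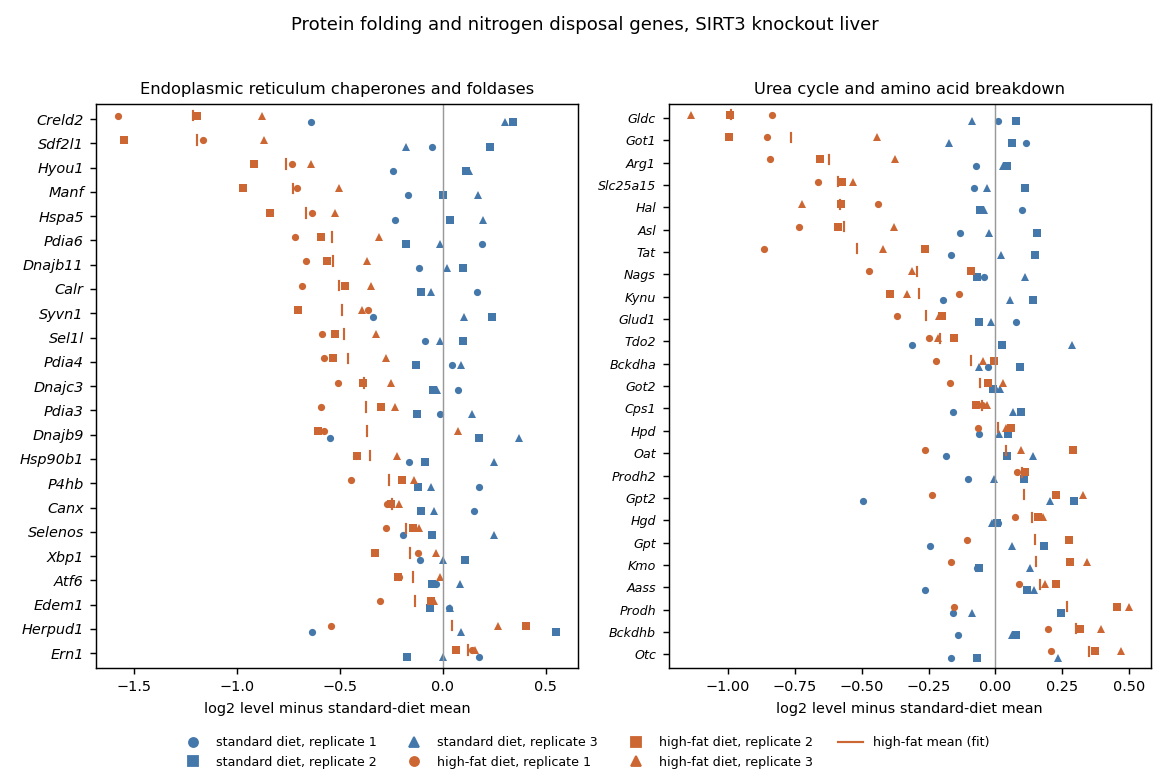
Log2 levels of endoplasmic reticulum chaperones and foldases (left) and of genes of the urea cycle and amino acid breakdown (right) in SIRT3 knockout liver, ordered by difference, minus the standard-diet mean of each gene on the x axis, with 1 point an array (blue standard diet, orange high-fat diet, symbol for the replicate) and the high-fat mean as an orange line. On the left 21 of 23 means lie below 0 with standard-diet points scattered to either side, and on the right the 6 called genes from Gldc to Asl lie below -0.5.

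In one-carbon and methyl metabolism 2 of 22 genes rose and 3 fell (22.7% called, against 5.11% of all genes, median -0.07). Inmt, a methyltransferase of indole amines, read 11.05, 11.27 and 11.44 on the standard diet and 12.69, 13.02 and 12.69 on the high-fat diet, a rise of 2.92-fold (1.55, SE 0.131, limma adjusted p = 3.08e-05). Cbs, which makes cystathionine from homocysteine, fell from 11.44, 11.35 and 11.21 to 10.91, 10.71 and 10.60 (-0.60, SE 0.0935, adjusted p = 0.00361). Cth, the next enzyme of that route (-0.43), Nnmt, which methylates nicotinamide (-0.94), and Gamt of creatine synthesis (0.39) were called without being stable. Cth lost its call without standard-diet replicate 2 (0.113) or 3 (0.0752) or high-fat replicate 2 (0.082) or 3 (0.117). Nnmt lost it without standard-diet replicate 1 (0.0982) or 2 (0.132) or high-fat replicate 1 (0.104) or 2 (0.0799). Gamt lost it in 8 of the 12 fits, at 0.0561 to 0.159. The histamine methyltransferase Hnmt, outside these lists, rose from 6.47, 6.86 and 7.21 to 7.84, 8.71 and 8.71 (1.57, SE 0.21, adjusted p = 0.00129).

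Part of the tubulins fell. Of 18 genes of tubulins, actins, keratins and related proteins 4 fell and 0 rose (22.2% called, against 5.11% of all genes), and all 4 are tubulins. Tubb2a read 7.81, 7.59 and 7.46 on the standard diet and 6.18, 6.45 and 5.73 on the high-fat diet (-1.50, SE 0.187, limma adjusted p = 0.000859), and Tuba4a read 9.53, 9.54 and 9.79 against 8.61, 8.78 and 8.75 (-0.90, SE 0.11, adjusted p = 0.000793). Both calls were stable. Tubb5 (-0.54) lost its call without standard-diet replicate 2 (0.0629) or high-fat replicate 2 (0.0626), and Tuba8 (-0.56) without 5 of the 6 knockout arrays (0.0583 to 0.113). Tuba1a (-0.16), Tubb2b (-0.18) and the actin Actb (-0.08) were not called. Tubulin genes share much of their sequence, so probes could mix their signals.

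Further stable rises of over 2-fold fall into none of these pathways. Adam11, an inactive member of a metalloprotease family, had the smallest p of all genes, from 7.61, 7.76 and 7.45 to 9.28, 9.20 and 9.15 (1.60, SE 0.105, limma adjusted p = 5.14e-06). The protease inhibitor Serpinb1a rose from 5.67, 5.70 and 5.81 to 7.62, 6.94 and 6.80 (1.39, SE 0.185, adjusted p = 0.00123). Keg1 (1.48), the zinc-finger gene Zfp991 (1.71), from a family of near-identical copies, and the desmosomal cadherin Dsg1c (1.39) rose as well. Among falls, the manganese exporter Slc30a10 went from 9.46, 9.22 and 9.25 to 8.69, 7.82 and 7.94 (-1.16, SE 0.206, adjusted p = 0.00608). The cadherin Cdh1, which joins hepatocytes and bile duct cells, went from 8.03, 7.87 and 7.65 to 6.78, 6.69 and 6.63 (-1.15, SE 0.1, adjusted p = 3.78e-05), and the other bile duct genes are given with the cell markers.

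Less firm calls were the repressor Bcl6, the arrestin Arrdc3, the P450 Cyp4a12b, the lectin Clec10a and the magnesium transporter Nipal1. Bcl6 read 6.89, 7.26 and 7.97 against 8.79, 8.89 and 9.27 (1.61, SE 0.417, limma adjusted p = 0.0391) and lost its call without 5 of the 6 knockout arrays (0.0636 to 0.125) or without wild-type standard-diet replicate 2 (0.0523). Arrdc3 (1.43) lost it without standard-diet replicate 1 (0.0924) or any of the high-fat arrays (0.0597 to 0.101). Cyp4a12b read 9.91, 12.02 and 11.92 against 12.69, 12.66 and 12.76, and the difference of 1.42 became 0.73 without standard-diet replicate 1. Its call ended without any high-fat array (0.0808 to 0.109) and without any of 4 wild-type arrays (0.0535 to 0.0581). Nipal1 read 8.45, 6.97 and 7.25 against 6.55, 6.40 and 6.26, and -1.15 became -0.70 without the same array, with no call without high-fat replicate 2 (0.0758) or 3 (0.0834). Clec10a (-1.20) lost its call without standard-diet replicate 1 (0.052) or 2 (0.0889) or high-fat replicate 2 (0.0935) or 3 (0.0815).

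In bulk tissue fewer cells of a type and less RNA per cell cannot be told apart. None of 24 macrophage and Kupffer cell genes (median -0.02) and none of 10 genes of MHC class II presentation (median 0.07) was called. Calls were made for 1 of 12 neutrophil genes (8.33%) and 1 of 18 endothelial genes (5.56%). They were also made for 2 of 24 stellate cell and matrix genes (8.33%) and 1 of 20 genes of pancreas, fat and muscle (5.0%). These shares lie near the 5.11% of all genes and the 7.62% of the receptor genes. Of 9 bile duct genes the cadherin Cdh1 fell, with a stable call, and no other was called (11.1% called). In this list 8 differences were negative and the median was -0.20. Each high-fat array lay below each standard-diet array in 4 genes, an order seen in 13.2% of all genes. The list means were 0.09, 0.04 and -0.14 on the standard diet and -0.20, -0.23 and -0.30 on the high-fat diet, so the groups do not overlap, while the defining markers Krt19 (-0.01) and Epcam (-0.05) have overlapping groups. List means were also apart by diet in several other lists, as in coagulation and complement. Among lymphocyte genes 2 of 19 rose and 1 fell (15.8% called), with 10 differences positive and 9 negative. Ncr1 rose and Il7r fell, neither with a stable call. Il7r lost its call without standard-diet replicate 2 (limma adjusted p = 0.0544) or high-fat replicate 2 (0.0677). Ncr1 lost it without standard-diet replicate 2 (0.102) or 3 (0.118) or high-fat replicate 1 (0.119) or 2 (0.176). It was also lost without some wild-type arrays. Themis, a T cell signalling protein, read 4.94, 4.93 and 5.14 on the standard diet and 6.35, 7.00 and 7.16 on the high-fat diet (1.84, SE 0.183, limma adjusted p = 0.00013), with a stable call, while the list mean lay between -0.09 and 0.06 on the standard diet and between 0.02 and 0.20 on the high-fat diet. The part of these cells in the results was not tested.

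Sex-biased liver genes differed on standard-diet replicate 1, and their diet differences are given with that in view. Of 22 male-biased genes 3 rose and 0 fell (13.6% called, against 5.11% of all genes). Of their differences 20 were positive and the median was 0.49, which became 0.31 without that array. The 3 calls became 1 without high-fat replicate 1 or 3 or wild-type standard-diet replicate 2, and Nudt7 was the stable one. Of 25 female-biased genes 4 rose and 3 fell (28.0% called) with a median of -0.13, which turned to 0.14 without that array, so no direction is given. Of 39 P450 genes of families 1 to 3, 5 rose and 1 fell (15.4% called, median 0.20). The 5 rises became 2 without high-fat replicate 2 and 8 without standard-diet replicate 3, and the fall became 0 without standard-diet replicate 2 or any high-fat array. Cyp2j6 read 8.86, 9.08 and 9.29 against 9.65, 9.75 and 9.75 (0.64, SE 0.109, limma adjusted p = 0.00517) and Cyp2c29 rose by 0.54 (SE 0.0802, adjusted p = 0.00246), both stably. Among 16 carboxylesterases 3 rose (18.75% called), with Ces1g at 0.94 (SE 0.152, adjusted p = 0.0043) and Ces2e at 0.46 (SE 0.0763, adjusted p = 0.00466) stable. The P450 and esterase families hold near-identical copies that probes may not separate. None of 18 apolipoprotein and lipoprotein genes (median -0.07) and none of 28 acute-phase genes (median -0.12) was called. The acute-phase median turned to 0.10 with 1 rise called without standard-diet replicate 1, and with 3 rises without both replicates 1, so no direction is given for that list.

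The diet differences of the knockout were set beside those of wild-type liver with the interaction, the knockout difference minus the wild-type difference, in which an offset between the runs that both genotypes share cancels. Limma called 0 of 19938 genes (0%) for it, with 944 at an unadjusted p under 0.05 (4.73%), and its median SE of 0.161 sets what could be seen. In the wild type 1194 genes were called for diet (5.99%), 858 up (4.3%) and 336 down (1.69%). All 62 genes called at 2-fold or more in the knockout had the same sign in the wild type, 43 of them were called there and 36 were at least 2-fold. The knockout and wild-type comparisons share the diets and the runs. Sterol ring genes had medians of -0.88 in the knockout and -0.83 in the wild type, and mevalonate genes -0.47 and -0.33. Cd36 (1.96 and 1.82), Cyp17a1 (-2.78 and -2.71) and Bhlhe41 (1.27 and 1.33) lay close together.

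The smallest interaction p values belonged to genes of several kinds, none with an adjusted p under 0.945. Scd1 rose in both genotypes, by 1.85 in the knockout and 3.38 in the wild type (interaction -1.52, SE 0.307, unadjusted p = 0.000187, limma adjusted p = 0.945). The wild-type arrays read 10.10, 9.13 and 10.18 on the standard diet and 13.21, 13.11 and 13.22 on the high-fat diet, so the genotypes stood apart on the standard diet and met on the high-fat diet. Sdf2l1 stood at -1.19 in the knockout and -0.27 in the wild type (interaction -0.92, SE 0.226, unadjusted p = 0.00105). The chaperone list as a whole had a median of -0.38 with 11 calls in the knockout and -0.16 with 0 calls in the wild type. The mitochondrial glutamate carrier Slc25a22 read 10.85, 10.94 and 10.97 on the standard diet and 10.13, 10.08 and 10.16 on the high-fat diet in the knockout (-0.80, SE 0.0919, adjusted p = 0.000561) and differed by -0.26 in the wild type. The LIM protein Crip2 stood at -0.68 and 0.04, and Swsap1 of DNA repair at -0.78 and -0.13. Tubb2a stood at -1.50 and -0.56 (interaction -0.94, SE 0.264, unadjusted p = 0.00314). As no interaction was called, these pairs of values do not establish that the genotypes differ.

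**Figure D5:**
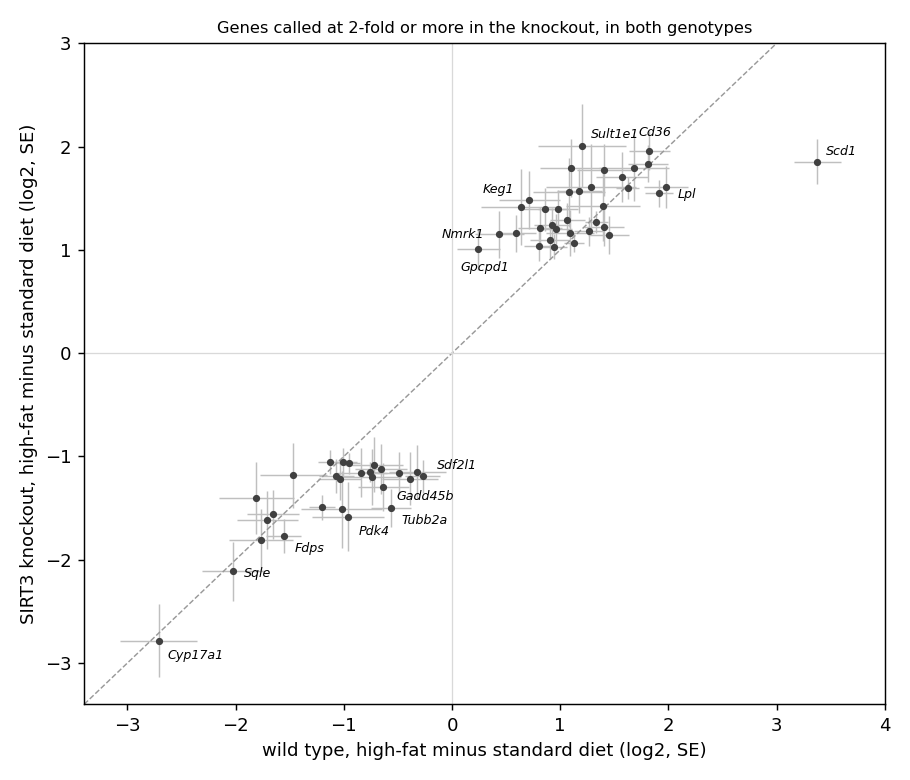
Diet difference in the wild type (x axis) and in the SIRT3 knockout (y axis) for the 62 genes called at 2-fold or more in the knockout, in log2 units, with bars for the SE of each and a dashed line where both are equal. All points share a sign in both genotypes, and Scd1 at 3.38 and 1.85 lies farthest from the line.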

How the data were processed

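Total liver RNA was hybridised to Affymetrix whole-transcript arrays, and the authors deposited log2 expression values per probe set, which the submitters' processing notes trace to RMA and Affymetrix Expression Console; software versions and chip runs are not given in the sources used here. Of 35557 probe sets, 21789 name 1 gene, 1621 name several and 12147 are unlisted. Where 999 genes had several probe sets, the one with the highest mean was kept, which left 19938 genes. Akr1d1 lacks a value on high-fat replicate 2. Groups came from the labels. One limma model (limma 3.58.1, R 4.3.3; lmFit, then eBayes with an intensity trend) held 4 group means over 12 arrays, with 8 residual degrees of freedom, and gave the diet differences and their interaction; p-values were adjusted over all genes. The number of arrays limits precision. The script was tested on simulated data. Tables and figures used Python 3.11.15, pandas 2.3.3 and matplotlib 3.10.9.

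Named genes were Sirt3, the 20 largest called rises and falls whose groups do not overlap, up to 8 called members of each of 50 lists (the 2 of smallest p where none was called) and the 10 smallest interaction p-values, without small RNAs, chemosensory receptors and predicted or clone-named genes. The members and lists were chosen with earlier results of these data known. Alternatives changed the moderation, arrays, normalization, filter, probe sets, threshold and offset variance.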

Additional observations from a re-analysis of the deposited data

Results flagged for a closer look

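Among the 161 named genes, 2 had diet differences of opposite signs in the genotypes, with groups apart in each. The named genes include the 10 of smallest interaction p, and the other genes were not searched for this pattern. Marcksl1, an actin-regulating protein, read 7.06, 7.01 and 6.95 on the standard diet and 6.93, 6.80 and 6.95 on the high-fat diet in the knockout (-0.11), and 6.78, 6.70 and 6.72 against 7.22, 7.20 and 7.22 in the wild type (0.48). The interaction was -0.59 (SE 0.117, unadjusted p = 0.000153, limma adjusted p = 0.945), and the knockout difference became -0.07 without high-fat replicate 2. Hspb3, a small heat shock protein, read 6.15, 6.24 and 6.34 against 6.01, 6.12 and 6.06 in the knockout (-0.17), and 5.85, 5.72 and 5.95 against 6.42, 6.24 and 6.13 in the wild type (0.42). The interaction was -0.60 (SE 0.145, unadjusted p = 0.000961, limma adjusted p = 0.945). Neither interaction passed the threshold over all genes, and neither knockout difference was called (adjusted p = 0.463 and 0.346).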

How the results depend on the processing

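Of the 138 named calls, 70 held without any 1 array, and no named difference changed sign while called. The 1018 calls (488 up, 530 down) became 381 (184 and 197) with the knockout arrays alone, 1764 (817 and 947) with array weights, 431 (213 and 218) without dim genes, where fewer genes were tested, and 1532 (770 up) after quantile normalization, with 790 up after cyclic loess. They became 51 (29 and 22; 35 of at least 2-fold) in a test against 1.2-fold, 39 (24 and 15; 38 of at least 2-fold) with the run-offset variance, 232 (107 and 125) at an adjusted p under 0.01, 1926 (881 and 1045) under 0.1, and 441 (245 and 196) without both replicates 1, chosen after the data were seen. Leaving out each array gave 360 to 1286 calls, 162 to 577 up, 198 to 709 down, 50 to 86 of at least 2-fold, and 0 to 1 interaction calls, the 1 being Sult2a8 (limma adjusted p = 0.00657) without standard-diet replicate 3. The cause of these shifts was not tested unless stated. With the replicate number as a block 1025 genes were called (494 up, 531 down), 65 of at least 2-fold, and 133 of the 138 named calls held. Deviations of same-numbered arrays correlated at 0.237, 0.027 and 0.407 for replicates 1, 2 and 3. Differently numbered arrays correlated at -0.395 to 0.171. Standard-diet replicates 1 and 3 correlated best with the high-fat array of their own number, and replicate 2 with high-fat replicate 1 (0.171). Whether same-numbered samples share more than a number was not tested. Probes near background and 3 arrays a group limit what small differences can show.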
